A study of Mus musculus with 6 samples.

Results

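The genes described here are 10 that the extracellular signal-regulated kinase (ERK) pathway is known to switch on, most of which act back on it: Dusp4, Dusp6, Spry1, Spry2, Spry4, Spred1, Etv4, Etv5, Phlda1 and Errfi1. They were chosen by symbol as known targets and feedback genes, with no threshold on their values, and all 10 were found among the 46078 genes of the deposited count table and the 15138 genes of the authors' deposited comparison. RNA was sequenced from the epithelial fraction of the colon of mice 2 months of age, kept under naive conditions, that were wild type or homozygous for a Lingo3 knockout (Lingo3-/-). Each genotype had 3 libraries, and the labels name no other factor. Lingo3 is a membrane protein whose extracellular part carries leucine-rich repeats. EDTA with DTT is the wash on the label of wild type replicate 1, EDTA alone that on the other 5 labels, and the protocol common to all 6 has both agents. Neither the strain, nor how the allele was made, nor whether libraries of a genotype are separate animals was given in the sources used here. A p-value here therefore reflects only how these libraries vary, and that variation may be technical.

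Growth factor receptors on the cell surface load Ras with GTP, and active Ras starts a relay of kinases from Raf through MEK to ERK. ERK enters the nucleus, phosphorylates transcription factors and raises the transcription of a set of genes that includes ETS factors and proteins that damp the same signal: phosphatases that remove the phosphates from ERK, Sprouty and Spred proteins that act near Ras and Raf, and inhibitors of the receptors. In the intestinal epithelium the pathway is fed by ligands of the epidermal growth factor family and is known for its part in the proliferation of crypt cells. The transcripts measured here are levels of mRNA, and phosphorylation was not analysed here.

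RefSeq promoter windows (GRCm38.p6) were found for 6 of the 10 genes, and stretches of 100 bases from 4 of them are shown, all in lower case except for the letters of a matched motif. Spred1 and Etv5 are shown because they were higher in knockout, and Dusp6 and Errfi1 because they were the most abundant of the 10 and did not rise. The Spred1 stretch is chr2:117120971-117121070 (plus strand), the Etv5 stretch chr16:22439720-22439819 (minus strand), the Dusp6 stretch chr10:99263131-99263230 (plus strand) and the Errfi1 stretch chr4:150854970-150855069 (plus strand). Each lies upstream of a RefSeq start and in no GENCODE M21 exon of its own gene, and each reads 5′ to 3′ on the strand of its gene. Exons of other genes were not checked. The Etv5 stretch ends 149 bases before its start, the others directly before theirs, and the Errfi1 stretch lies within the span of the gene, upstream of an internal start.
Spred1: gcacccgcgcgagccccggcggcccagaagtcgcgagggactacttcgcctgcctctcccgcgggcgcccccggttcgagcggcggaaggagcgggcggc
Etv5: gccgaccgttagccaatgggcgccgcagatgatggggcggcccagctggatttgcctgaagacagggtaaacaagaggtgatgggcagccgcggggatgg
Dusp6: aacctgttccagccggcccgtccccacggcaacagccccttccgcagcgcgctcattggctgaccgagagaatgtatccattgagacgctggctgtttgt
Errfi1: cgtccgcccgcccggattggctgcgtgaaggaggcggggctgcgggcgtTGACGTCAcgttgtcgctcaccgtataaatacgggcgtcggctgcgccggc

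Exact letters of 4 motifs were searched on both strands of the windows, which run from 250 bases before to 50 bases after each start. The octamer bound by Capicua, TGAATGAA or TGAATGGA, was in 2.47% of 32851 windows, the ETS site CCGGAAGT in 3.89%, the AP-1 site TGANTCA in 7.81% and the cyclic AMP response element TGACGTCA in 1.79%. Among the 8 windows of the 6 genes, 1 match was found: TGACGTCA in the Errfi1 stretch, 51 bases before the start, printed in capitals. The other 7 windows held none of these letters, which says only that the letters are not in these windows. The windows of Spred1 (72.3% G and C) and Etv5 (74.0% and 60.0%) and those of Spry1 (64.3%) and Spry2 (62.7%) were richer in G and C than the median window (52.7%). So was that of Dusp6 (57.3%), while the Errfi1 windows lay on either side of the median, at 42.0% and, for the stretch shown, 66.7%.

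Counts over genes ran from 25010618 to 28029583 in wild type and from 11868000 to 17200931 in knockout, so the knockout libraries were the shallower ones. Mitochondrially encoded transcripts took 45.25 to 48.44% of the counts in wild type and 34.65 to 36.28% in knockout. Lingo3 itself had 3, 3 and 1 counts in the wild type libraries and 2, 0 and 1 in the knockout libraries, too few to check the genotype labels. The 16 epithelial markers were all tested and summed to 6320 to 7599 CPM in wild type and 7383 to 8855 CPM in knockout, so the labelled cell type carried its defining transcripts. CPM is the count of a gene relative to the size of its library, here after TMM factors had corrected the sizes for differences in composition.

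Of the 10 genes 3 rose in the Lingo3-/- libraries and 0 fell. Spred1 and the ETS factors Etv4 and Etv5 were higher, by 1.83-, 1.91- and 1.41-fold. The most abundant of the set, Dusp6 and Errfi1, had lower means in knockout, and their groups overlapped. A gene was called where the Benjamini-Hochberg adjusted p of edgeR's quasi-likelihood fit over 16856 genes lay below 0.05, and all 10 genes passed the filter on low counts. Over all genes tested, 15.4% were called, 9.43% higher and 5.97% lower. At an unadjusted edgeR p under 0.05, 4 of the 10 would be higher and 2 lower, Dusp6 and Errfi1. The share of all genes at that unadjusted threshold is not given here. After adjustment DESeq2 and limma-voom, like edgeR, called 0 lower. The 3 of 10 called higher are thus a larger share than among all genes and the 0 called lower a smaller one, on a set too small to read more from. Knockout lay wholly above wild type in 4 of the 10 (the 3 called and Spry1), against 19.7% of all genes, and wholly below it in 0 of the 10, against 16.0% of all genes. The median log2 fold change (knockout minus wild type) of the 10 was 0.21, against -0.03 over all genes tested, and 6 of the 10 were above 0.

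**Figure D1:**
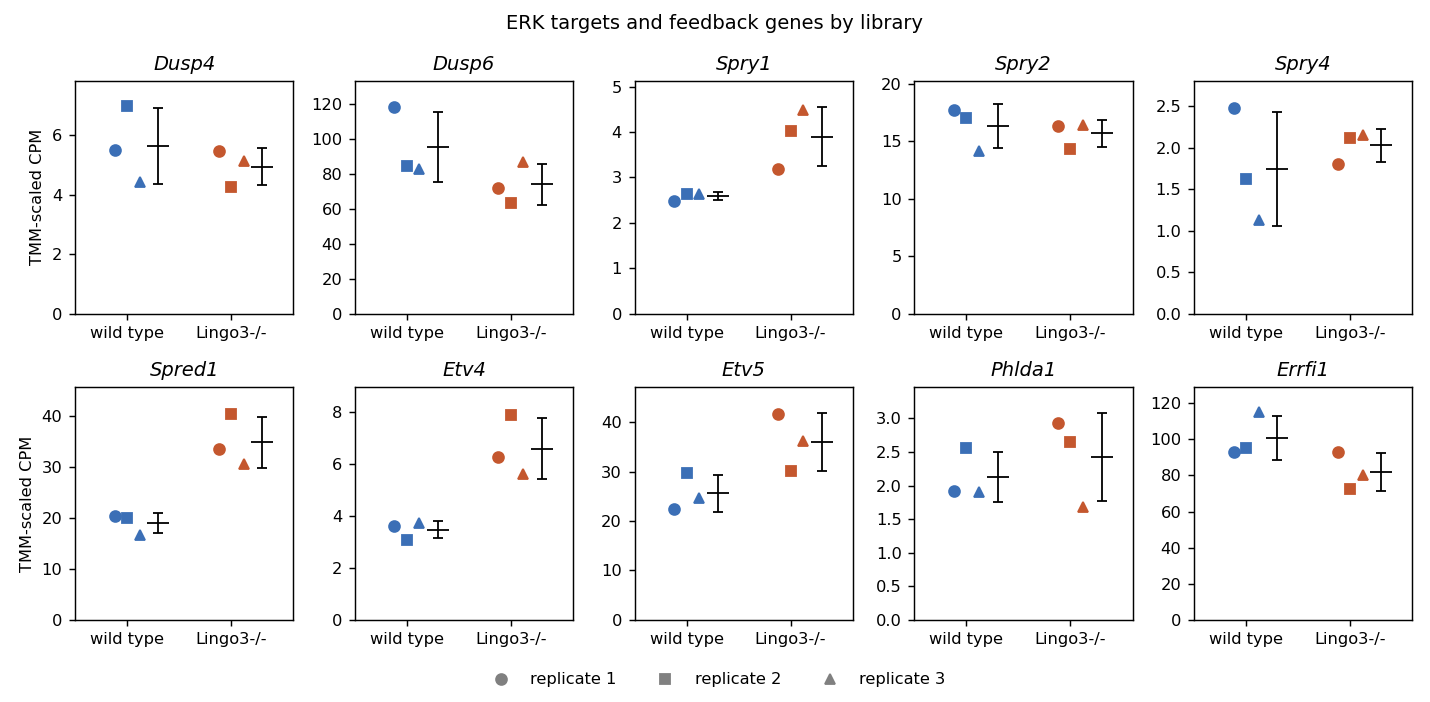
TMM-scaled CPM (vertical axis, from 0, a separate scale for each gene) of the 10 genes in the 3 wild type (blue) and 3 Lingo3-/- (orange) libraries, with marker shapes for the replicate and a bar for the mean and SD. The knockout points of Spry1, Spred1, Etv4 and Etv5 lie above every wild type point, and those of the other 6 genes overlap the wild type points.

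The ETS factors Etv4 and Etv5 are transcription factors that ERK signalling both induces and activates. Etv4 (ENSMUSG00000017724, chromosome 11, 101769742 to 101785371, minus strand, GRCm38) stood at 3.60, 3.09 and 3.73 CPM in wild type replicates 1, 2 and 3 and at 6.28, 7.90 and 5.60 CPM in the knockout replicates. In CPM every knockout library was above every wild type library. The raw counts, 77 to 86 in wild type and 70 to 149 in knockout, overlapped. On average Etv4 stood at 3.47 ± 0.337 CPM in wild type and 6.59 ± 1.18 CPM in knockout (SD, n = 3), and its log2 fold change was 0.93 ± 0.19 (SE; 95% interval 0.52 to 1.34; edgeR adjusted p = 0.00808). This placed Etv4 at percentile 98.94 of the fold changes of all genes tested. Leaving out each library in turn kept Etv4 called, with an edgeR adjusted p of 0.0137 to 0.0364.

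Etv5 (ENSMUSG00000013089, chromosome 16, 22381309 to 22439719, minus strand) was the more abundant of the pair, also per kb of exon. Wild type libraries held 22.4, 29.6 and 24.7 CPM and knockout libraries 41.7, 30.1 and 36.2 CPM. The groups were separate but met closely, since knockout replicate 2 lay only just above wild type replicate 2. From means of 25.6 ± 3.72 and 36.0 ± 5.82 CPM (SD, n = 3) the log2 fold change was 0.49 ± 0.14 (SE; 95% interval 0.19 to 0.79; edgeR adjusted p = 0.0351). The rise of Etv5 is the least firm of the 3: leaving out replicate 1 or 3 of wild type gave an edgeR adjusted p of 0.0720 or 0.0895, and leaving out replicate 1 or 3 of the knockout gave 0.0907 or 0.109. It was 0.0182 to 0.0189 without either replicate 2, and over all 19 alternative settings it ran from 2.44e-04 to 0.237.

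Other ETS genes on the list of kinases and factors below ERK did not share one direction. Ets2, itself a direct substrate of ERK, stood at 118, 113 and 112 CPM in wild type and 166, 159 and 162 CPM in knockout, and rose (log2 fold change 0.50 ± 0.09 SE; edgeR adjusted p = 0.00548). The gene Ets1 fell from 76.9 ± 7.96 to 34.2 ± 8.23 CPM (SD, n = 3), which is -1.17 ± 0.17 (SE) on the log2 scale, at an edgeR adjusted p of 0.00372. Ets1 is also known for its expression in lymphocytes, and the T cell markers moved with it: 12 of 14 fell and 0 rose, their sum going from 349.8 to 407.2 CPM in wild type to 124.1 to 217 CPM in knockout. Their part in the result was not tested, and in bulk RNA fewer cells of a type and less RNA per cell cannot be told apart. Etv1, a close relative of Etv4 and Etv5, was barely detected, at 0.641 to 0.954 CPM in wild type and 0.515 to 0.955 CPM in knockout.

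Sprouty and Spred proteins are membrane-associated inhibitors of the step from receptors to Raf, and Spred1 is known to bring neurofibromin, which switches Ras off, to the membrane. Spred1 (ENSMUSG00000027351, chromosome 2, 117121374 to 117182279, plus strand) stood at 20.4, 20.1 and 16.8 CPM in the wild type libraries and 33.6, 40.4 and 30.7 CPM in the knockout libraries. The gap between the groups was wider than the spread within either. Its mean was 19.1 ± 1.99 CPM in wild type and 34.9 ± 4.99 CPM in knockout (SD, n = 3), and the log2 fold change was 0.87 ± 0.12 (SE; 95% interval 0.61 to 1.14; edgeR adjusted p = 0.00187). Spred1 had the smallest adjusted p of the 10 and was called without any single library (edgeR adjusted p 0.00281 to 0.0105). Its relative Spred2, with 18.5 to 23.0 CPM in wild type and 19.6 to 20.96 CPM in knockout, was not called (log2 fold change -0.07 ± 0.11 SE, edgeR adjusted p = 0.714).

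Of the Sprouty genes, none was called. Spry1 (ENSMUSG00000037211, chromosome 3, 37639947 to 37644598, plus strand) had 2.48, 2.64 and 2.65 CPM in wild type and 3.19, 4.03 and 4.48 CPM in knockout. Its groups did not overlap, and its log2 fold change of 0.58 ± 0.21 (SE; 95% interval 0.13 to 1.03) missed the threshold (edgeR adjusted p = 0.0793; 0.0478 without knockout replicate 1; 0.00900 to 0.349 over the 19 alternatives). These are low levels, with 53 to 76 counts per library, and Spry1 shares 710 exon bases with Gm42922 on the other strand, which had 8 counts in all libraries together. Whether the counting used strand was not given in the sources used here, and without strand the reads of such a pair cannot be told apart.

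Spry2 (ENSMUSG00000022114, chromosome 14, 105891947 to 105896819, minus strand) was the most abundant Sprouty gene per kb of exon, at 17.7, 17.0 and 14.2 CPM in wild type and 16.3, 14.3 and 16.4 CPM in knockout. The groups overlapped, and the 95% interval of its log2 fold change ran from -0.32 to 0.20, which leaves room for small changes in either direction. Spry4 (ENSMUSG00000024427, chromosome 18, 38586247 to 38601415, minus strand) had 2.48, 1.62 and 1.13 CPM in wild type and 1.80, 2.12 and 2.16 CPM in knockout. With 26 to 53 counts per library Spry4 had the widest interval of the 10, from -0.44 to 0.88, and a change within that interval could not be told from none at this depth. The remaining gene of the family, Spry3, had 0 counts in every library, so at most 3 counts, or 0.113 to 0.240 CPM, are allowed per library. Such a floor covers counting error only, whereas the 95% intervals also take in the variation between these libraries.

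Dusp6 and Dusp4 encode dual-specificity phosphatases, Dusp6 a cytoplasmic enzyme selective for ERK and Dusp4 a nuclear one. Dusp6 (ENSMUSG00000019960, chromosome 10, 99263231 to 99267489, plus strand) stood at 118, 84.6 and 82.9 CPM in wild type replicates 1, 2 and 3 and 71.9, 63.4 and 86.6 CPM in the knockout replicates. Knockout replicate 3 lay above wild type replicates 2 and 3, so the groups overlapped. Its log2 fold change was -0.37 ± 0.16 (SE; 95% interval -0.72 to -0.01; edgeR adjusted p = 0.148). The value leaned on wild type replicate 1, the library whose label differs: without it the log2 fold change was -0.16 and the edgeR adjusted p 0.402.

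Dusp4 (ENSMUSG00000031530, chromosome 8, 34807297 to 34819894, plus strand) had 5.52, 6.98 and 4.42 CPM in wild type and 5.46, 4.24 and 5.12 CPM in knockout. The ranges overlapped and its log2 fold change was -0.20 ± 0.20 (SE; 95% interval -0.64 to 0.24; edgeR adjusted p = 0.539). Neither phosphatase gene was thus called in the fit as reported. Dusp6 was called lower in 2 alternatives, with epithelial markers as the scale and with no filter on low counts.

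Errfi1, which encodes an inhibitor that binds the kinase domain of the epidermal growth factor receptor, and Phlda1, which encodes a protein with a pleckstrin homology-like domain, complete the set. Errfi1 (ENSMUSG00000028967, chromosome 4, 150853919 to 150868892, plus strand) was at 92.8, 95.1 and 115 CPM in wild type and 93.2, 72.2 and 80.4 CPM in knockout. Knockout replicate 1 lay within the wild type values, only just above the lowest of them, and the other knockout libraries below them all. The log2 fold change was -0.30 ± 0.12 (SE; 95% interval -0.56 to -0.04; edgeR adjusted p = 0.111). An antisense gene within the span of Errfi1, 1700045H11Rik, shares no exon base with it and had 129 counts in all against 11335 for Errfi1.

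Phlda1 (ENSMUSG00000020205, chromosome 10, 111506286 to 111508645, plus strand) had 1.92, 2.56 and 1.91 CPM in wild type and 2.94, 2.65 and 1.68 CPM in knockout. Knockout replicate 3, the shallowest library with 21 counts of the gene, was the lowest of the 6 and the other knockout libraries the highest. The log2 fold change was 0.20 ± 0.26 (SE; 95% interval -0.37 to 0.78; edgeR adjusted p = 0.631). Phlda1 shares 727 exon bases with Gm28592 on the other strand, a gene with 0 counts in every library.

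**Figure D2:**
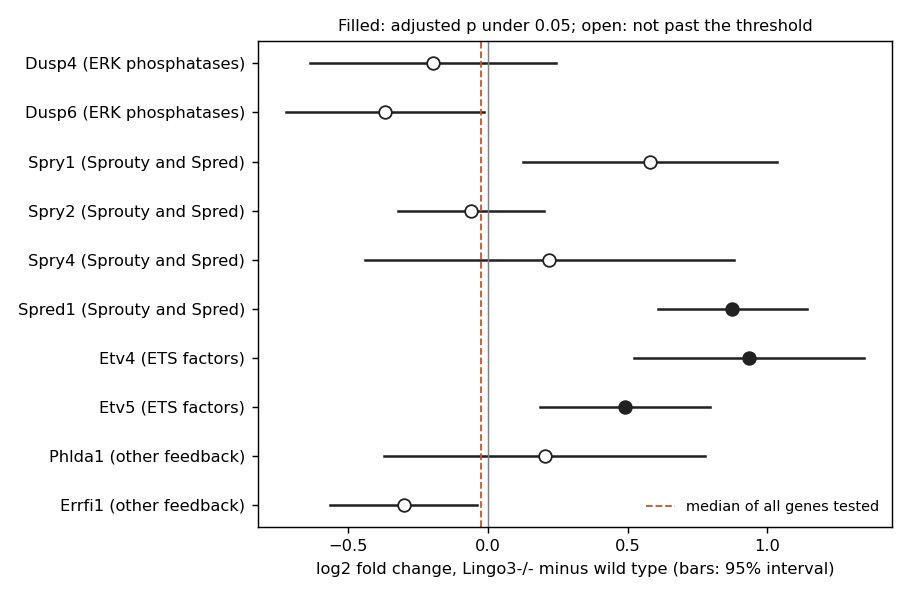
Log2 fold change (knockout minus wild type, horizontal axis) of each of the 10 genes with its 95% interval, filled where the edgeR adjusted p was under 0.05; the dashed line is the median of all genes tested, -0.03. The intervals of Spred1, Etv4, Etv5 and Spry1 lie above 0, those of Dusp6 and Errfi1 just below it, and the other 4 span it.

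In the authors' deposited table the same 3 genes had an adjusted p under 0.05, Spred1 at 9.77e-07, Etv4 at 9.13e-04 and Etv5 at 0.0154 (DESeq2). At that threshold the table holds 16.7% of its 15138 genes, in both directions together. The log2 fold changes in the authors' deposited table were 0.89 for Spred1, 0.95 for Etv4 and 0.51 for Etv5, and the other 7 genes had DESeq2 adjusted p-values of 0.111 (Spry1) to 0.896 (Spry2). Both analyses use the same libraries and are not independent of each other.

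To compare levels between genes, CPM were divided by the exon length of each gene in kb. In wild type the order of the mean level per kb was Dusp6 (30.4), Errfi1 (28.2), Spry2 (7.82), Etv5 (6.23), Spred1 (2.81), Dusp4 (2.06), Etv4 (1.12), Phlda1 (0.966), Spry1 (0.891) and Spry4 (0.366). The libraries of neighbours overlapped for Dusp6 with Errfi1, Spry2 with Etv5, Spred1 with Dusp4, Etv4 with Phlda1 and Phlda1 with Spry1, so these pairs are not ordered beyond their spread. In knockout the means of Etv5 (8.77 per kb; 7.33 to 10.2) and Spry2 (7.51; 6.86 to 7.86) stood the other way round, with overlapping ranges. Spred1 (5.14; 4.53 to 5.96) was wholly above Dusp4 (1.80; 1.55 to 1.99), and the mean of Etv4 (2.12; 1.80 to 2.55) was above that of Dusp4 with overlapping ranges. Spry1 (1.34 per kb) likewise passed Phlda1 (1.098), again with overlapping ranges. Dusp6 and Errfi1, at 23.6 and 22.9 per kb, remained the most abundant transcripts of the set per length, far above the rest.

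**Figure D3:**
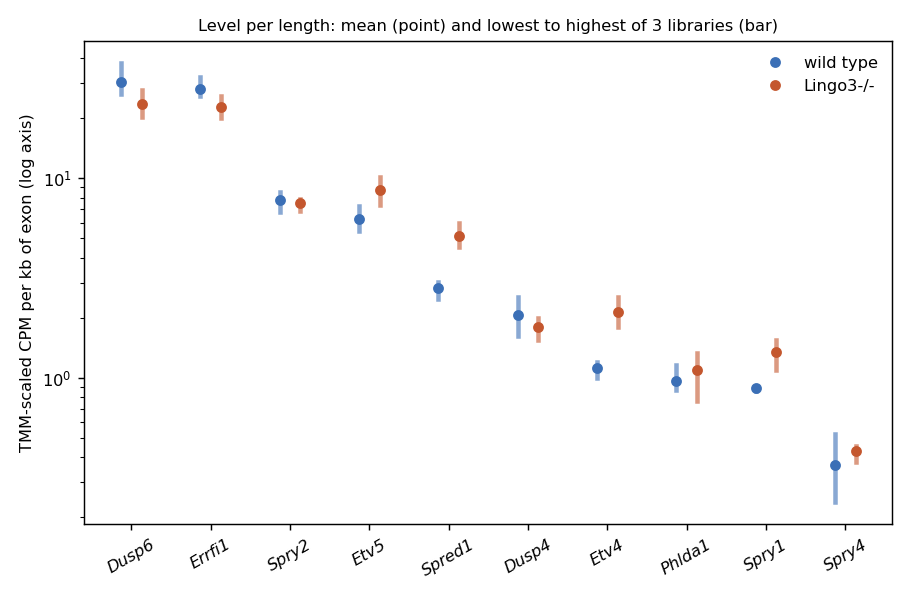
TMM-scaled CPM per kb of exon (vertical log axis) of the 10 genes, ordered by the wild type mean; points are means and bars run from the lowest to the highest of the 3 libraries in wild type (blue) and Lingo3-/- (orange). Dusp6 and Errfi1 stand above 20 per kb in both genotypes, whereas the knockout ranges of Etv5, Spred1, Etv4 and Spry1 lie above the wild type ranges.

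Ratios of raw counts within a library do not depend on how libraries are scaled, and the pairs given here were chosen after their values were seen. For each Spry2 count the libraries held 1.15, 1.18 and 1.18 Spred1 counts in wild type and 2.06, 2.82 and 1.87 in knockout. The ratio of Etv5 to Dusp6 was 0.189, 0.350 and 0.298 in wild type and 0.580, 0.474 and 0.417 in knockout, and that of Etv4 to Dusp4 was 0.653, 0.443 and 0.843 against 1.15, 1.86 and 1.09. In these 3 ratios knockout was wholly above wild type, by 0.92, 0.85 and 1.09 on the log2 scale, at a 2-sided exact permutation p of 0.1 each. With 3 libraries a side no smaller p is possible. The numerators are the genes called higher and the partners are uncalled genes with lower means in knockout. The direction of these ratios was therefore largely set by the choice of pairs, and their p-values add no support. As a description, Spred1 and the ETS transcripts were more abundant relative to these partners in each knockout library than in any wild type library. Between relatives the groups overlapped: the log2 difference was 0.42 for Etv4 over Etv5 and 0.18 for Dusp4 over Dusp6, both with an exact permutation p of 0.5.

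How the 10 divide into higher and lower depended on the scaling. Scaled to the summed counts of the epithelial markers, 2 were called higher (Spred1, log2 fold change 0.72, and Etv4, 0.78) and 2 lower: Dusp6 at -0.53 (edgeR adjusted p = 0.00793; 0.00793 to 0.682 over the 19 alternatives) and Errfi1 at -0.46 (edgeR adjusted p = 0.0270; 0.0270 to 0.931 over the alternatives). That scaling lowered the median of all genes by 0.16 and left 19.33% of called genes higher, against 61.21% with TMM factors. Scaling to library totals raised that median by 0.28, with 92.8% of called genes higher, and called 4 of the 10 higher, Spry1 among them, and 0 lower. Upper-quartile factors, with 45.44% of called genes higher, called Spred1 and Etv4 higher and none of the 10 lower. Spred1 and Etv4 were called higher in each of the 19 alternative settings run, with log2 fold changes of 0.72 to 1.16 and 0.75 to 1.22.

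**Figure D4:**
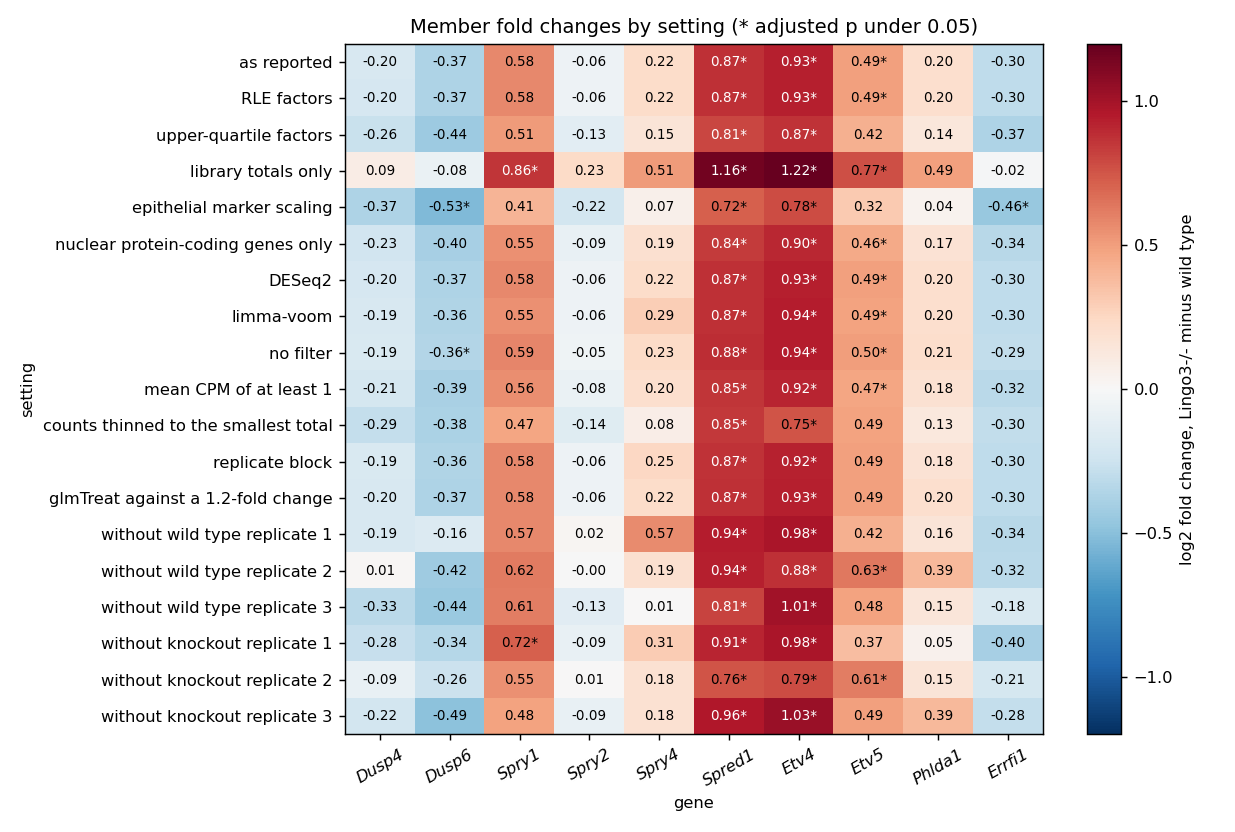
Log2 fold change (knockout minus wild type, colour and number) of each of the 10 genes under each setting that changes the fit, with an asterisk where the adjusted p was under 0.05. Spred1 and Etv4 carry an asterisk in every row, Etv5 in some, Spry1, Dusp6 and Errfi1 in 1 or 2 each, and Dusp4, Spry2, Spry4 and Phlda1 in none.

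Above the 10 genes in the pathway, transcripts of receptors and ligands changed in both directions. Of 19 tested, 3 rose and 1 fell, with a median log2 fold change of 0.07. Over all genes tested, 9.43% were called higher and 5.97% lower, which is the background for this list and those below. Knockout lay wholly above wild type in 5 of the 19 and wholly below it in 3, against 19.7% and 16.0% of all genes. The receptor genes Fgfr4, Kit and Fgfr3 rose, Fgfr4 from 5.36 ± 0.668 to 8.69 ± 0.391 CPM, Kit from 52.3 ± 4.52 to 75.4 ± 1.02 CPM and Fgfr3 from 21.03 ± 2.60 to 29.9 ± 1.90 CPM (SD, n = 3). Their log2 fold changes were 0.70, 0.53 and 0.51, and all 3 calls were lost under scaling to epithelial markers. Erbb2, the coreceptor of the epidermal growth factor receptor family, fell from 211 ± 15.3 to 147 ± 26.8 CPM (SD, n = 3; log2 fold change -0.52 ± 0.13 SE; edgeR adjusted p = 0.0216), a call lost with library totals and without wild type replicate 3, knockout replicate 1 or knockout replicate 2. Egfr had 69.3, 50.5 and 61.0 CPM in wild type and 81.4, 71.8 and 71.4 CPM in knockout; the groups did not overlap, and the difference was not called (edgeR adjusted p = 0.0946). Erbb3, the kinase-impaired partner of Erbb2, went from 458 ± 33.6 to 387 ± 51.6 CPM (SD, n = 3) and was not called (edgeR adjusted p = 0.233).

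Of 22 genes of the cascade itself, 0 rose and 3 fell, with a median log2 fold change of 0.00. At an unadjusted edgeR p under 0.05, 3 would be higher and 3 lower. DESeq2 and limma-voom called 0 higher, but 1 was called higher by edgeR without wild type replicate 1 or without knockout replicate 1. The scaffold Ksr1, which holds Raf, MEK and ERK together, fell from 43.7 ± 7.10 to 26.2 ± 1.45 CPM (SD, n = 3; kept in every setting; log2 fold change -0.74 ± 0.12 SE; edgeR adjusted p = 0.00347). Gab1, a docking adaptor below receptors, fell from 24.4 ± 1.15 to 17.5 ± 0.797 CPM, and the Ras relative Mras from 5.04 ± 1.25 to 2.51 ± 0.908 CPM (SD, n = 3). The calls for Gab1 and Mras were lost with library totals and with a test against a 1.2-fold change (glmTreat). That for Mras was also lost without wild type replicate 1 or 2 or without knockout replicate 2 or 3. Braf and Map2k1, kinases of the relay, were not called: the log2 fold changes were -0.11 for Braf and 0.06 for Map2k1, with overlapping groups. Mapk3, which encodes a form of ERK itself, had 84.9 to 88.4 CPM in wild type and 95.9 to 110 CPM in knockout, without overlap. This difference of 0.22 on the log2 scale missed the threshold (edgeR adjusted p = 0.129). With library totals as the scale, 12 of the 22 cascade genes were called higher and 1 lower, as were 9 and 0 of the receptors and ligands. That scaling called 5415 genes higher and 420 lower in all and raised the median of all genes by 0.28. These list counts are therefore no result particular to the cascade or the receptors.

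Below ERK, 1 of 14 kinases and factors rose (Ets2) and 2 fell (Ets1 and Cic), with a median of 0.00. Cic, the repressor that ERK signalling removes from genes such as Etv4, Etv5 and Spry4, fell from 65.5 ± 4.09 to 49.6 ± 0.741 CPM (SD, n = 3; log2 fold change -0.40 ± 0.09 SE; edgeR adjusted p = 0.0126). Its call was lost with library totals and with replicate 2 of either genotype left out. The call of Ets2 was lost under scaling to epithelial markers, while that of Ets1 was kept in every setting.

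Of the feedback genes outside the 10, 17 of 19 were tested, 2 rose and 2 fell, and the median log2 fold change was -0.07. Lrig1, a receptor inhibitor and marker of crypt base cells, rose from 72.1 ± 3.21 to 104 ± 9.09 CPM (SD, n = 3; log2 fold change 0.53 ± 0.10 SE; edgeR adjusted p = 0.00548). Pebp1, which binds Raf and hinders its contact with MEK, rose from 25.8 ± 0.622 to 38.7 ± 3.70 CPM (SD, n = 3), and both calls were lost under scaling to epithelial markers. The phosphatase genes Dusp2 and Dusp16 fell, Dusp2 from 3.49 ± 0.736 to 1.27 ± 0.362 CPM and Dusp16 from 41.7 ± 1.16 to 30.6 ± 2.19 CPM (SD, n = 3). The call of Dusp16 was lost with library totals and with glmTreat, that of Dusp2 in no alternative setting. Without knockout replicate 1 the number of these feedback genes called lower was 5. Dusp2 is known from lymphocytes among other cells, and the T cell markers given above were lower in the same libraries. Their part in the change of Dusp2 was not tested. Dusp1, a phosphatase gene of the immediate early kind, ran from 34.9 to 71.1 CPM in wild type and from 11.3 to 26.6 CPM in knockout; it was not called by edgeR (adjusted p = 0.0962) but was by DESeq2. Dusp5, the nuclear phosphatase selective for ERK, had 13.3 to 16.0 CPM in wild type and 6.72 to 16.1 CPM in knockout, with overlapping groups (edgeR adjusted p = 0.324).

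Other outputs of the pathway split in opposite directions. Of 15 tested, 3 rose and 4 fell, and the median log2 fold change was -0.33. The growth genes rose: Ccnd1, which encodes cyclin D1, from 17.7 ± 2.74 to 31.8 ± 3.35 CPM (SD, n = 3; log2 fold change 0.85 ± 0.13 SE; edgeR adjusted p = 0.00236), and the transcription factor Myc from 7.96 ± 0.966 to 16.2 ± 4.80 CPM (SD, n = 3; log2 fold change 1.04 ± 0.21 SE; edgeR adjusted p = 0.0114). Neither of these calls was lost in any alternative setting, whereas that of the receptor gene Epha4 (log2 fold change 0.41, edgeR adjusted p = 0.0380) was lost in several.

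The 4 outputs that fell, Fos, Fosb, Jun and Junb, encode subunits of the AP-1 transcription factor. Fos stood at 256, 322 and 480 CPM in wild type and 126, 134 and 183 CPM in knockout, which is -1.26 ± 0.25 (SE) on the log2 scale (edgeR adjusted p = 0.0168; not called without knockout replicate 2). Fosb and Jun fell with it, by 2.06 and 1.05 on the log2 scale, and Junb, which is outside the naming rule and is given because it completes the count of 4, by 1.02. The call of Jun was lost only without knockout replicate 3. That of Junb was lost with glmTreat and with any single library left out except knockout replicate 3. Fosb lost its call without wild type replicate 2 or any 1 knockout replicate, and with limma-voom, no filter and glmTreat. Egr1, an immediate early factor known to be induced through ERK, had 34.9, 59.5 and 77.0 CPM in wild type and 28.6, 12.3 and 17.9 CPM in knockout and was not called by edgeR (log2 fold change -1.54 ± 0.45 SE; adjusted p = 0.0873), though it was by DESeq2. Epha2 overlapped between the groups, at 32.9 to 48.2 CPM and 30.9 to 56.4 CPM. The number of outputs called lower was 4, 2 and 3 with wild type replicate 1, 2 or 3 left out and 2, 1 and 2 with knockout replicate 1, 2 or 3 left out.

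**Figure D5:**
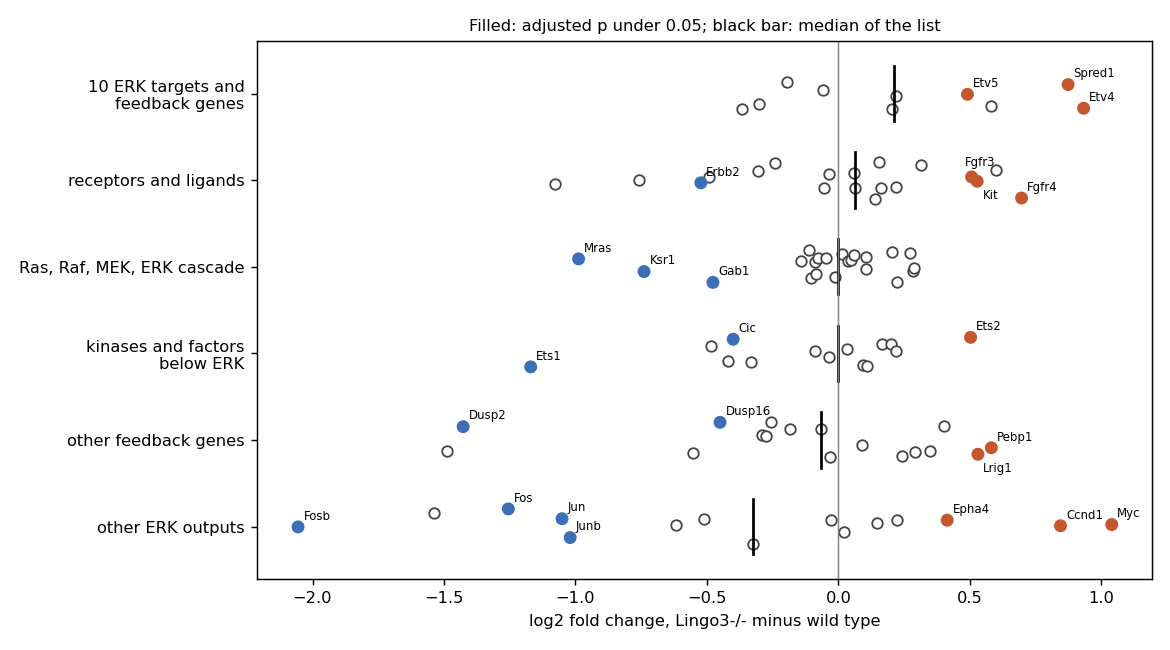
Log2 fold change (knockout minus wild type, horizontal axis) of every tested gene of the 10 and of 5 other lists of the pathway; filled points (orange higher, blue lower, named) had an edgeR adjusted p under 0.05, and black bars are list medians. The 10 genes have the highest median of the lists, 0.21, and the other outputs the lowest, -0.33, with points at both ends.

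Stem and crypt markers were higher in the same libraries as Spred1, Etv4 and Etv5. Of 12 such markers 8 rose and 0 fell, and their sum went from 351.5 to 364.6 CPM in wild type to 586 to 699.7 CPM in knockout. With epithelial markers as the scale, 5 of the 12 were called higher. The receptor gene Ephb2 (log2 fold change 0.62), Slc12a2 (1.13) and Sox9 (0.77) were among the 8. Of 10 colonocyte markers 1 rose and 1 fell, with overlapping sums of 5399 to 6491 and 4440 to 6069 CPM. The number of colonocyte markers called lower was 4 without wild type replicate 2 and 0 with any other single library left out. Among the other cell types, 0 of 12 fibroblast markers were called by edgeR in either direction (3 lower at an unadjusted p under 0.05 and 2 lower by DESeq2; 5 lower by edgeR without wild type replicate 3; 527 to 1478 CPM in wild type and 349.9 to 765.2 CPM in knockout), 4 of 10 B and plasma cell markers fell (26.47 to 66.96 CPM and 14.8 to 19.94 CPM; 8 without wild type replicate 1, 2 with replicate 2 of wild type left out and 1 without knockout replicate 2 or 3), and 1 of 11 myeloid markers rose and 1 fell (90.65 to 109.4 CPM and 68.58 to 244.4 CPM; 5 rose and 0 fell without knockout replicate 2, and 0 fell when knockout replicate 1 or replicate 2 or 3 of wild type was left out). Of the endothelial markers 2 of 5 tested fell and 0 rose, and of the smooth muscle markers 1 of 6 tested fell and 0 rose (0 to 2 fell with 1 library left out). No marker of any of these lists was at 0 in all libraries, and the part of these cell types in the changes of Spred1, Etv4 and Etv5 was not tested.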

How the data were processed

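Trimmomatic 0.39, STAR, HTSeq and DESeq2 and the build GRCm38 are named in the submitters' processing notes; versions of the last 3 tools and the strand setting were not given in the sources used here. Libraries were made with a stranded total RNA kit after depletion of ribosomal RNA, per the labels' protocols. The authors deposited raw counts per Ensembl gene. In the authors' deposited comparison the log2 fold changes and p-values are those of DESeq2, per the file headers, the normalized values (signal) equal the counts times 1 factor per library within a relative deviation of 5.00e-15, and the mean level and test statistic (score) were deposited beside them.

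The HTSeq summary lines tally reads not assigned to a gene. They made up 53.62 to 60.05% of the total of these lines and the gene counts per library, and were left out of the library sizes. Genes were kept by filterByExpr (minimum count 10, minimum total 15), and scaled with TMM factors (0.856 to 0.948 in wild type and 1.06 to 1.13 in knockout), and all 16856 genes kept were fitted together by robust quasi-likelihood in edgeR (2-sided test, genotype as the only term, Benjamini-Hochberg adjustment, threshold 0.05). Standard errors are the absolute log2 coefficient of the fit, taken without edgeR's prior count, over the root of F. The log2 fold changes given include that prior count, and the intervals are centred on them. Versions were DESeq2 1.42.0, limma 3.58.1 and edgeR 4.0.16 under R 4.3.3. The code was checked on counts simulated from the fitted model with known changes. Such a check cannot show whether the model or the scaling suits these libraries. In GENCODE M21 (GRCm38), 45229 of 46078 identifiers had an entry. A floor of 3 counts was 0.113 to 0.240 CPM.

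All 10 genes are named, with Egfr, Erbb3, Braf, Map2k1, Mapk3, Ets2, Etv1, Cic, Spred2, Dusp1, Dusp5, Lrig1, Ccnd1, Myc, Epha2, Egr1 and Fos, and up to 3 of each list and direction with the largest change among those called, at a mean CPM of at least 1 and without overlap; some genes of the rule are not reported here. Of the markers, 3 of the 8 stem and crypt genes called were named after their values were seen. The genes, lists and tests were chosen with earlier results of these data known. The 19 alternatives were RLE, upper-quartile, library-total and epithelial-marker scaling, nuclear protein-coding genes only, DESeq2, limma-voom, genes unfiltered or kept at a mean CPM of at least 1, counts thinned to the smallest total, the replicate number as a block, an adjusted p under 0.1, glmTreat against a 1.2-fold change, and each library left out in turn. Protein sequences were not used here.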

Additional observations from a re-analysis of the deposited data

How the results depend on the processing

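The count of 3 higher among the 10 genes was 2 to 4 over the 19 alternatives and 2 to 3 when 1 library was left out. The count of 0 lower became 2 with epithelial-marker scaling and 1 (Dusp6, edgeR adjusted p = 0.0150) without a filter, and was 0 in the other alternatives, including each library left out. Direction changed for 2 genes, neither of them called: with library totals the log2 fold change was 0.085 for Dusp4 and 0.226 for Spry2, and with 1 library left out the values ran from -0.328 to 0.013 for Dusp4 and from -0.134 to 0.023 for Spry2 (0.009 without knockout replicate 2). The cause was not tested. Etv5 was lost with upper-quartile factors, epithelial-marker scaling, thinned counts, glmTreat and the replicate block. Among the other pathway genes named, glmTreat also lost the calls of Erbb2, Fgfr3, Gab1, Mras, Ets2, Cic, Dusp16, Epha4, Fosb and Junb. Same-numbered libraries deviated with correlations across genes of -0.04, -0.10 and -0.14, which gave no sign of a pairing by number. With 3 libraries a group this check cannot exclude a pairing, and the labels do not say what the numbers stand for. The replicate block called 2 of the 10 higher and 0 lower, with an edgeR adjusted p of 0.0805 for Etv5 (2.44e-04 to 0.237 over the alternatives), and 1193 genes higher and 868 lower in all.

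Over all genes the counts of 1589 higher and 1007 lower became 5415 and 420 with library totals, 401 and 1673 with epithelial-marker scaling, 1980 and 1675 without a filter, 2245 and 1697 at an adjusted p under 0.1, and 497 and 364 with glmTreat; with 1 library left out they ran from 711 to 1677 higher and from 413 to 1070 lower. Fewer counts in the knockout libraries and levels of a few CPM limit what can be seen of Spry4, Phlda1 and Spry1.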
